A study of Drosophila melanogaster with 2 samples.

Results

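A group of 6 genes of the hedgehog and wingless signalling circuit was examined for peaks of a CG16779-eGFP fusion protein in Drosophila melanogaster embryos: patched (ptc), hedgehog (hh), smoothened (smo), cubitus interruptus (ci), wingless (wg) and engrailed (en). They were chosen by name, with earlier results of these data known, and are 6 of 13968 annotated protein-coding genes. Each was examined over its gene body with 5 kb on either side, called its window here. The data came from chromatin immunoprecipitation with an anti-GFP antibody on whole transgenic embryos aged 8 to 24 h, with sonicated fragments of 200 to 800 bp, in 2 biological replicates of 1 group. All embryos carried the fusion and no control library was analysed here, so positions of peaks are described and no conditions are compared. Since whole embryos were used, fewer bound cells and weaker binding per cell cannot be told apart, and how many reads each library held is unknown.

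In each segment of the fly embryo, cells that express the homeodomain factor Engrailed secrete Hedgehog. Hedgehog binds the receptor Patched on neighbouring cells, which lifts the inhibition that Patched places on the transmembrane protein Smoothened, and the zinc finger factor Cubitus interruptus then activates targets that include wg and ptc itself. Wingless, a secreted Wnt protein, in turn maintains en in the adjacent cells. This exchange sets the polarity of each segment, hence the name segment polarity genes.

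Of the 6 genes, ptc alone had a reproducible peak at its own promoter, and smo had a pair of peaks in its window that lay at another gene. The peaks were taken from a list of 2517 that passed an irreproducible discovery rate (IDR, which is low where both sets of peaks give a peak a similarly high rank) of 0.01 between the replicates, called the conservative list. A summit of this list lay in the window of 2 of the 6 genes (33.3%), against 34.0% of all protein-coding genes. The 95% exact binomial interval, 4.33 to 77.7%, covers counting error only. It treats the 6 genes as independent random draws, which named genes are not. Within 500 bp of a transcription start site (TSS) the count was 1 of 6, against 11.3% of all genes. Both shares were near the background, and with 6 genes the interval is wide. The windows were not matched for length, with a median of 19.2 kb for the 6 genes and 12.2 kb for all genes. No summit of the conservative list lay in the windows of hh, ci, wg or en.

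Below the threshold, 5 of the 6 windows were well covered by weak ranked peaks. The full ranked list made from the replicates held 136703 peaks, of which 143 had a summit in the 6 windows. Their density was 1.13 to 1.78 per kb in the 5 windows that held any, against 0.985 per kb over the chromosome arms. That background spans all sequence of the arms, with chromosomes Y and 4 (0.165 per kb) included, and is not a density over gene windows. Only 3 of the 143 had an IDR of at most 0.01, and 63 had an IDR above 0.5. Replicate 2 over replicate 1, on the log2 scale, had an SD of 1.01 over the 143, close to the 1.06 over all ranked peaks. It was 0.41 over the conservative list, which was selected by the IDR between these same replicates, so a smaller spread is built in there. As a set, the ranked peaks in these windows therefore differed between the replicates about as much as ranked peaks did in general. Of the 143, 12 shared the same peak of each replicate with a neighbour and are not separate measurements.

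**Figure D1:**
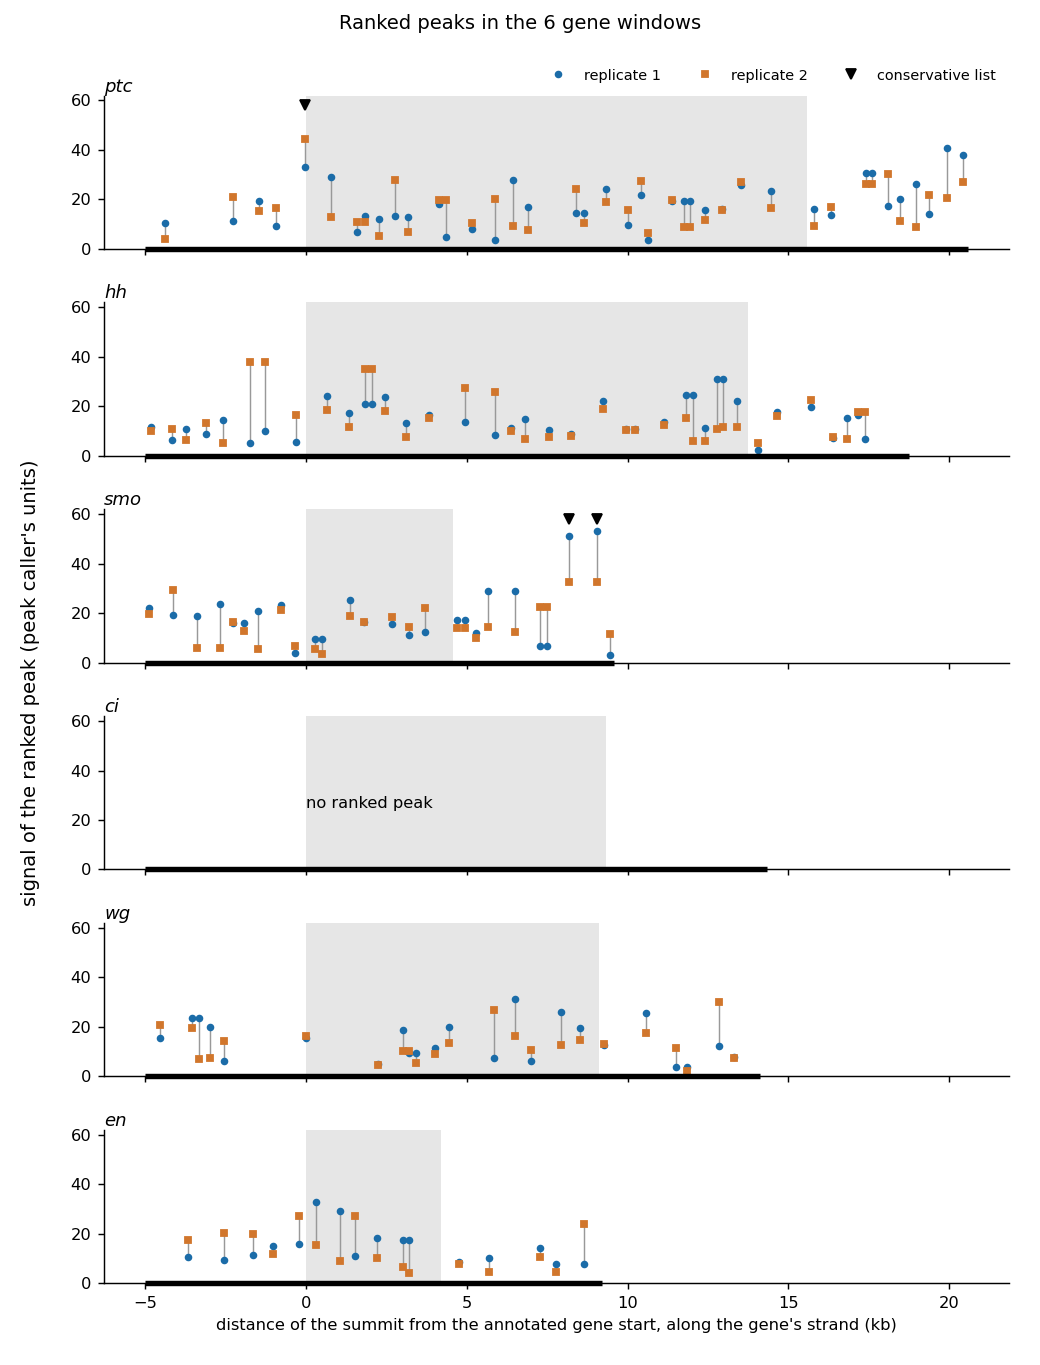
Signal of every ranked peak in the 6 windows, plotted against the distance of its summit from the annotated start of the gene in kb, along the strand of the gene. Circles and squares are replicates 1 and 2 joined by a line, grey marks the gene body, the black bar the window, and triangles the 3 summits of the conservative list, 1 at the start of ptc and 2 beyond the end of smo, while the window of ci is empty.

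ptc (FBgn0003892, plus strand, dm6 chr2R:8649649-8665223) encodes the Hedgehog receptor, and its strongest peak by the mean of the replicates lay at its promoter. In replicate 1 alone, peaks in the neighbouring gene Acsl were higher. So they were on the signal of the peak made from both replicates, with 60.0 and 57.4 against 57.0 at the promoter. The promoter peak, chr2R:8649472-8649761, had its summit 32 bp upstream of the only annotated TSS, outside the transcribed region. Its signal, the value given by the authors' peak caller, was 33.0 in replicate 1 and 44.4 in replicate 2. The mean was 38.7 ± 8.07 (SD, n = 2), and the peak was the higher in replicate 2. A conservative summit lay as near to a TSS as this for 1.82% of all protein-coding genes. The IDR between the replicates was 0.00356.

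The ptc peak was among the weaker ones of its list. It ranked 1618th of 2517 by mean signal, with a list median of 42.9 and a range from 31.4 to 564. It was absent from the list thresholded on pooled reads and from the list thresholded on each replicate alone (its own list), and its IDR was 0.298 within replicate 1 and 0.0275 within replicate 2. In the ranked lists of the single replicates its summits lay 126 bp apart, 20 bp downstream of the TSS in replicate 1 and 106 bp upstream in replicate 2. The call at ptc thus rests on comparing the ranks of the 2 replicates.

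A further pair of conservative summits lay just beyond the edge of the ptc window, in intergenic sequence. They were 55 and 257 bp outside it, 5055 and 5257 bp upstream of the TSS (chr2R:8644449-8644738 and chr2R:8644247-8644536), and ptc was the gene with the nearest TSS. Both drew on the same peaks of the replicates, with signals of 36.9 and 42.7 and a mean of 39.8 ± 4.08 (SD, n = 2), so they are a single measurement. It was in the pooled-read list, and neither replicate called it alone. The next ranked peak inside the window, chr2R:8669942-8670231, had signals of 37.8 and 27.2 and an IDR of 0.0114, just past the threshold. It lay 4864 bp beyond the 3′ end of ptc in an intron of Acsl, the gene of a long-chain acyl-CoA synthetase. A peak 498 bp nearer to ptc in the same intron had signals of 40.6 and 20.5, and an IDR of 0.0606.

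smo (FBgn0003444, plus strand, chr2L:277582-282167), which encodes the transducer that Patched inhibits, had the strongest peaks of all 6 windows by the mean, but they lay 4464 and 3589 bp beyond its 3′ end. The stronger, chr2L:286486-286775, had signals of 53.0 in replicate 1 and 32.7 in replicate 2, with a mean of 42.9 ± 14.4 (SD, n = 2). The weaker, chr2L:285611-285900, had signals of 51.2 and 32.7, with a mean of 41.9 ± 13.1 (SD, n = 2). Both peaks were the higher in replicate 1, the reverse of the ptc peak. Both were in the pooled-read list and in the own list of replicate 1, and neither was in that of replicate 2, where their IDRs were 0.120 and 0.0771. Their summits lay 100 and 30 bp upstream of alternative TSSs of CG3625, a gene on the minus strand, and the first also lay within the antisense RNA gene asRNA:CR46263. From the TSS of smo the nearer was 8174 bp away, and 38.8% of all protein-coding genes had a conservative summit that near to a TSS.

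The smo window held the only conservative peaks whose sequence is shown. Each is given whole, as the plus strand of the RefSeq release 6 genome (dm6), with capitals for matches on either strand to any of 8 short motifs. GAGAG is bound by the GAGA factor, which keeps promoters open. TAATTA is a core recognised by homeodomain factors, and TATAAA stood for a TATA box. CTTTGA is a core of the site of TCF, the transcription factor of wingless signalling. TATCGATA is the DNA replication-related element of many broadly active promoters. GACCACCC is part of the site bound by Cubitus interruptus. CAGGTA is a site of the early embryonic factor Zelda. GCCAT is the core of the site of Pleiohomeotic, a Polycomb group protein. No motif is contained in another.
smo window, chr2L:286486-286775: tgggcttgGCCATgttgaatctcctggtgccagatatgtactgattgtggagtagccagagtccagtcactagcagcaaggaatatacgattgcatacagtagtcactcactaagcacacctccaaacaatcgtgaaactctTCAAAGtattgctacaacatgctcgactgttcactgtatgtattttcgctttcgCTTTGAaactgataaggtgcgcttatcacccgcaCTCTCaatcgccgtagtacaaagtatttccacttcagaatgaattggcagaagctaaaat
smo window, chr2L:285611-285900: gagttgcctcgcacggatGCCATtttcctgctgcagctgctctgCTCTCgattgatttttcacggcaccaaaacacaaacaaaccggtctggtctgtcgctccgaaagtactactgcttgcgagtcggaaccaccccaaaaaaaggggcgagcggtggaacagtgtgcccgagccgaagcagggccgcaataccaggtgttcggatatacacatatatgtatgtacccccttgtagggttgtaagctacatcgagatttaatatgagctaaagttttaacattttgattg
The first holds CTTTGA once on each strand, and the match on the minus strand (TCAAAG as printed) lies at the summit. A match within 50 bp of the summit was present at 4.61% of all conservative peaks. The second has no match within 50 bp of its summit. GC content within 50 bp of the summit was 40.6% and 60.4%, against a median of 44.6% for the list, so these neighbours lay on opposite sides of it.

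hh (FBgn0004644, minus strand, chr3R:23128169-23141906), the gene of the secreted ligand, had no peak that passed, and its 3 strongest ranked peaks were higher in replicate 2. The strongest, chr3R:23139710-23139999, lay in an intron of hh 2051 bp downstream of the TSS. Its signal was 21.0 in replicate 1 and 35.0 in replicate 2, with a mean of 28.0 ± 9.97 (SD, n = 2) and an IDR of 0.0589, the smallest in the window. A second, overlapping ranked peak nearer to the TSS drew on the same peaks of the replicates. The third, 1279 bp upstream of the TSS, had 9.87 and 38.0, and no peak of the window was higher in replicate 2. The nearest conservative summit lay 31625 bp from the TSS.

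wg (FBgn0284084, plus strand, chr2L:7307159-7316265), the gene of the secreted Wnt ligand, had no peak that passed, and by the mean its strongest was close to that of en. That peak, chr2L:7313528-7313817, lay in an intron 6514 bp downstream of the TSS and had signals of 31.4 and 16.1, with a mean of 23.7 ± 10.8 (SD, n = 2) and an IDR of 0.213. Replicate 1 was the higher. Intergenic peaks 3532 bp upstream of the TSS and 1469 bp beyond the 3′ end followed, with means of 21.6 ± 2.87 and 21.5 ± 5.74 (SD, n = 2). The smallest IDR in the window was 0.124, and the nearest conservative summit lay 18139 bp from the TSS.

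ci (FBgn0004859, minus strand, chr4:47710-57041), the gene of the transcription factor that carries the Hedgehog signal to its targets, was the only one with no ranked peak at all. None of the 136703 ranked peaks, and none in the own ranked list of each replicate, had its summit in the 19.3 kb window. The ranked summits on either side lay at positions 18634 and 121113, which left a stretch of 102 kb that also holds all of PlexB, RpS3A and pan, the last of which encodes the TCF factor of wingless signalling. Such empty windows were usual on chromosome 4, with 51 of its 80 protein-coding genes (63.8%), against 3.88% over all genes. That chromosome held 222 ranked peaks, 0.165 per kb, and 6 conservative ones, the nearest of which lay 329920 bp from a TSS of ci. Without read depth along the chromosome, an absence of binding and an absence of usable reads at ci cannot be told apart.

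A set of 3 windows without a conservative summit is illustrated by sequence from 50 bp before to 50 bp after a central base, which is the strongest ranked summit for hh and wg (plus strand) and the upstream TSS for ci (minus strand, 5′ to 3′ along the gene), with the same motifs in capitals.
hh intron, chr3R:23139805-23139905: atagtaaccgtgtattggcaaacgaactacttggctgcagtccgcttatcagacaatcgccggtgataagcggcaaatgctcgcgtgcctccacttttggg
wg intron, chr2L:7313623-7313723: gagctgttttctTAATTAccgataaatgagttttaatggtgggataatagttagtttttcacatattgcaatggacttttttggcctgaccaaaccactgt
ci TSS, chr4:56991-57091: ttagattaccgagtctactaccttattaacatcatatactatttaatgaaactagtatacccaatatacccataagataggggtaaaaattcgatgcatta
Only the wg sequence holds a match, to TAATTA, which was present in 5.17% of windows of this size at conservative summits. The ci promoter sequence is the poorest in G and C, with 29.7%, against 34.7% for the wg and 51.5% for the hh sequence.

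en (FBgn0000577, minus strand, chr2R:11524006-11528210), which encodes the homeodomain factor that activates hh, had its strongest ranked peaks at its promoter, as ptc did, but none passed. The strongest, chr2R:11527750-11528039, had its summit 12 bp upstream of the inner of 2 annotated TSSs. Its signal was 32.9 in replicate 1 and 15.5 in replicate 2, with a mean of 24.2 ± 12.2 (SD, n = 2) and an IDR of 0.250. The next, 204 bp upstream of the outer TSS, had 15.6 and 27.2, so each replicate favoured a different one of these neighbours. Another, in a coding exon of en, had 29.3 and 9.04. The nearest conservative summit lay 65079 bp from a TSS of en.

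Set against each other, the strongest peaks of the 5 genes overlapped between neighbours in the order of their means. The means fell from 42.9 for smo through 38.7 for ptc, 28.0 for hh and 24.2 for en to 23.7 for wg, and the ranges of the replicates overlapped for every neighbouring pair. Neighbours differed by less than the larger of their SDs except for ptc and hh, whose means were further apart than either SD. With 2 samples of 1 group no permutation test exists, and none was made. The promoter peak of ptc over the stronger smo peak was 0.902 for the means, 0.622 in replicate 1 and 1.36 in replicate 2, so the direction differed between the replicates. Among all protein-coding genes, whose strongest peak in the window had a median of 28.8, 21.6% had a higher one than smo, 25.6% than ptc and 51.4% than hh. Both smo and ptc were thus above the middle of the genome by this measure. The ptc peak was below the upper quartile of 40.2 over genes with a ranked peak in the window. Window length was not adjusted for, with 25.6 kb for ptc and 14.6 kb for smo against a median of 12.2 kb for all genes.

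**Figure D2:**
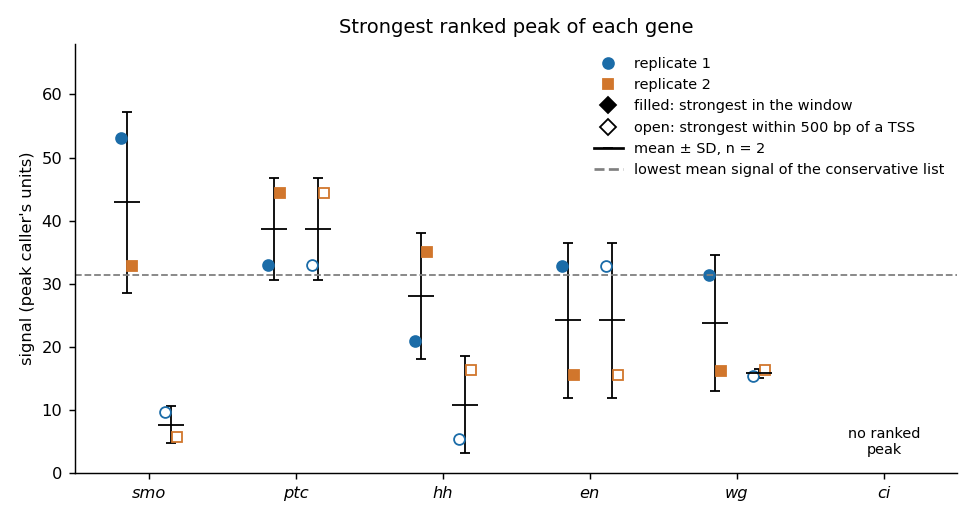
Signal of the strongest ranked peak of each gene, in the peak caller's units, in its window (filled) and within 500 bp of a TSS (open), with replicates 1 and 2 as circles and squares and the mean ± SD (n = 2) as bars. The dashed line is the lowest mean signal in the conservative list, 31.4, and is not a threshold. The ptc peak at its TSS and the smo peak away from its TSS belong to that list, so they cannot lie below the line.

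At the TSSs themselves, the difference between ptc and the other genes was larger in one replicate. Within 500 bp of a TSS, the strongest ranked peak had a mean of 38.7 ± 8.07 for ptc, 24.2 ± 12.2 for en, 15.8 ± 0.696 for wg, 10.8 ± 7.71 for hh and 7.66 ± 2.87 for smo (SD, n = 2), and ci had none. The wg peak lay 5 bp upstream of its TSS with signals of 15.3 and 16.3, below the median of 18.7 over all genes with a ranked peak there. The ratio of the ptc peak to that of en was 1.60 for the means, 1.00 in replicate 1 and 2.86 in replicate 2. The other promoter peak of en was the higher in replicate 2, with 27.2, and against it the ratio there was 1.63. On the signal of the peak made from both replicates, ptc over the en peak with the highest mean was 1.17. In replicate 1, ptc and en had practically the same signal, 33.0 and 32.9. Of all protein-coding genes, 8.87% had a stronger ranked peak at a TSS than ptc, 24.6% than en, 52.9% than wg, 71.5% than hh and 79.2% than smo.

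**Figure D3:**
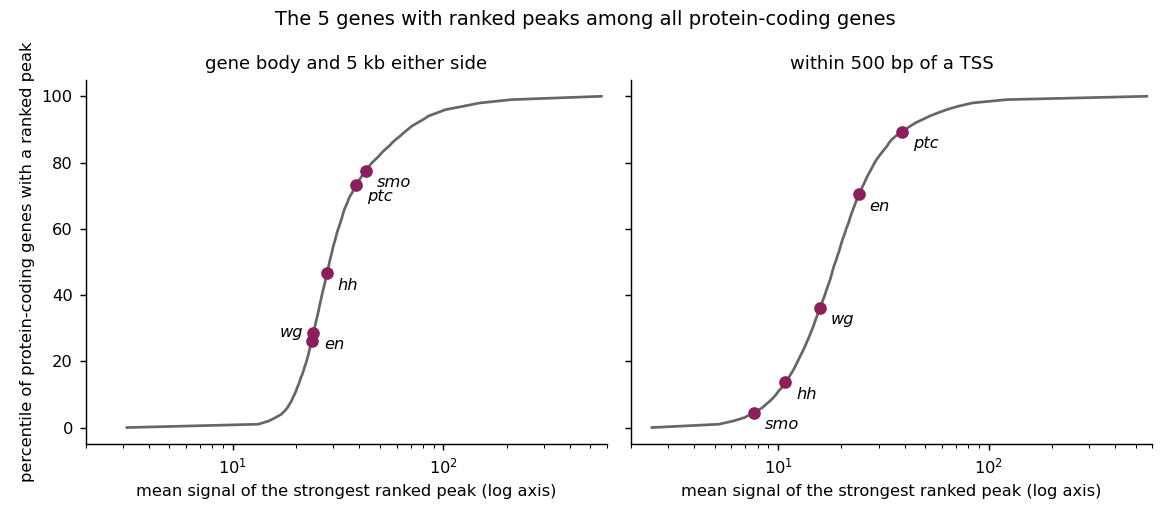
Percentile of each gene (points) on the cumulative curve of all protein-coding genes with a ranked peak, against the mean signal of the strongest ranked peak on a log axis, in the window (left) and within 500 bp of a TSS (right). ptc and smo lie together on the left, where their means are 38.7 and 42.9, and at opposite ends on the right, where they are 38.7 and 7.66.

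The promoters of ptc and en, with the strongest ranked peaks at a TSS, were also the only ones of the 6 with a GAGAG element within 50 bp of the annotated gene start. That element was present in 12.7% of 19276 such windows at protein-coding TSSs. It also lay within 50 bp of the ptc summit, as at 15.1% of all conservative summits. None of the remaining 7 motifs, the Cubitus interruptus element GACCACCC included, occurred within 50 bp of the start of any of the 6 genes or of the ptc summit. GC content within 50 bp of the ptc summit was 58.4%, above that of 87.5% of conservative peaks. These matches describe letters in a short window, and 6 promoters are too few to read a relation from.

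The genes whose conservative peak in the window was most like that of ptc, by the Euclidean distance of log2 signals over the 2 replicates among genes with a single such summit, were Glys, the glycogen synthase gene (33.0 and 44.7, distance 0.010), and a group that shares 1 summit (32.7 and 44.9, distance 0.021). The group holds ATPsyngamma, a subunit of the mitochondrial ATP synthase, IntS11, a subunit of the Integrator complex, Wdr24 and yata. The likeness is in signal and not in position. Unlike at ptc, the summit was not within 500 bp of a TSS of Glys, ATPsyngamma or yata, whereas it was for IntS11 and Wdr24. Of 13968 genes, 3204 had a single conservative summit in the window, so near matches in signal are common.

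Elsewhere in the 2 pathways, conservative summits were found in a larger share of windows than over all protein-coding genes. They lay in the windows of 15 of 23 other genes of hedgehog signalling (65.2%) and of 17 of 28 other genes of wingless signalling (60.7%), against 34.0% of all protein-coding genes. At the 6 genes the share was 33.3%, and 6 genes are too few to show a difference from these lists. The lists share sgg, CkIalpha and slmb, each with a summit. Their windows were longer than those of all genes, with medians of 16.8 and 19.3 kb against 12.2 kb. Per 100 kb of window there were 3.80 and 3.05 conservative summits, 2.57 for the 6 genes and 2.16 for all genes. Near a TSS there were 6 of 23 (26.1%) and 6 of 28 (21.4%), against 11.3%. The median of the strongest signal in the window was 38.9 and 37.6, against 28.8. In the own lists of replicates 1 and 2, 9 and 9 hedgehog genes and 10 and 10 wingless genes had a summit in the window, against 20.0% and 20.5% of all genes. The pooled-read list gave 15 and 18, against 35.1%. The lists were chosen with results of these data known and are described here without a test.

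Many of these summits belonged to neighbouring genes. The strongest in a hedgehog window, at Gprk2, the gene of a kinase that phosphorylates Smoothened, lay 76 bp from the TSS of PNPase and 601 bp from one of Gprk2 (chr3R:31404533-31404780, signals 328 and 430, mean 379 ± 72.1). The next were near nej, which encodes the coactivator CBP (chrX:9687689-9687978, 91.9 and 128, mean 110 ± 25.2), and SkpA, a subunit of SCF ubiquitin ligases (chrX:655090-655221, 80.5 and 133, mean 107 ± 36.9), the latter 206 bp from the TSS of Hmt4-20. That at sgg, the GSK3 kinase gene of both pathways, lay 212 bp upstream of a TSS of sgg itself (chrX:2646280-2646569, 107 and 92.6, mean 99.6 ± 9.90). Each replicate alone also called these 4 peaks, which was not so of the ptc peak. The strongest summit of the window was nearest to a TSS of the listed gene for 6 of 15 hedgehog and 8 of 17 wingless genes, and for 31.0% of the 4751 genes with any. The 8 hedgehog genes with no conservative summit were disp, rasp, ihog, boi, sotv, fu, Su(fu) and Cul1. Among them ihog and boi encode co-receptors for Hedgehog, fu a kinase of the pathway and Su(fu) an inhibitor of Cubitus interruptus.

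In the wingless list the strongest were at dsh, gro and Wnt2, besides sgg. The peak near dsh, which encodes the cytoplasmic transducer Dishevelled, lay in an intron of CG1737 4360 bp upstream of dsh (chrX:11351495-11351601, 85.4 and 115.4, mean 100.4 ± 21.2). At gro, the gene of the corepressor Groucho, the summit lay 116 bp upstream of a TSS (chr3R:26042380-26042669, 95.2 and 91.6, mean 93.4 ± 2.56), and it was called in each replicate. That in the window of Wnt2 lay 14 bp from a TSS of brp and 9613 bp from that of Wnt2 (69.6 ± 37.6). Of the other wg homologues, Wnt5 had a conservative summit 1903 bp upstream of its TSS, in an intron of Ggt-1 (48.0 and 62.7, mean 55.3 ± 10.4), which each replicate also called alone. Wnt4, Wnt6, Wnt10 and wntD had no conservative summit, though Wnt4 had 1 in the pooled-read list and 1 in the own list of replicate 1. There was no conservative summit either for arm, the gene of beta-catenin, or pan.

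Transcription factors that pattern the segments had few conservative summits, as hh, ci, wg and en had none. Of 18 other segment polarity and pair-rule regulators, 3 had one in the window (16.7%, against 34.0%) and 1 near a TSS (5.56%, against 11.3%). The median of the strongest signal was 23.1, against 28.8, and there were 0.927 summits per 100 kb of window. The windows had a median of 13.6 kb. The 3 were slp2, a forkhead factor, with an intergenic peak 4292 bp upstream of its TSS (chr2L:3832403-3832692, 54.3 and 49.9, mean 52.1 ± 3.12), lin, a transcriptional regulator of the epidermis, with a peak at the promoter of Pgi (41.1 and 41.3, mean 41.2 ± 0.147), and hry, the pair-rule gene hairy, with an intergenic peak 8057 bp downstream of its TSS (29.1 and 44.5, mean 36.8 ± 10.9). inv, the paralogue and neighbour of en, had none, nor did gsb, eve, ftz, odd, prd or run. Only the slp2 peak was in the own list of each replicate.

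**Figure D4:**
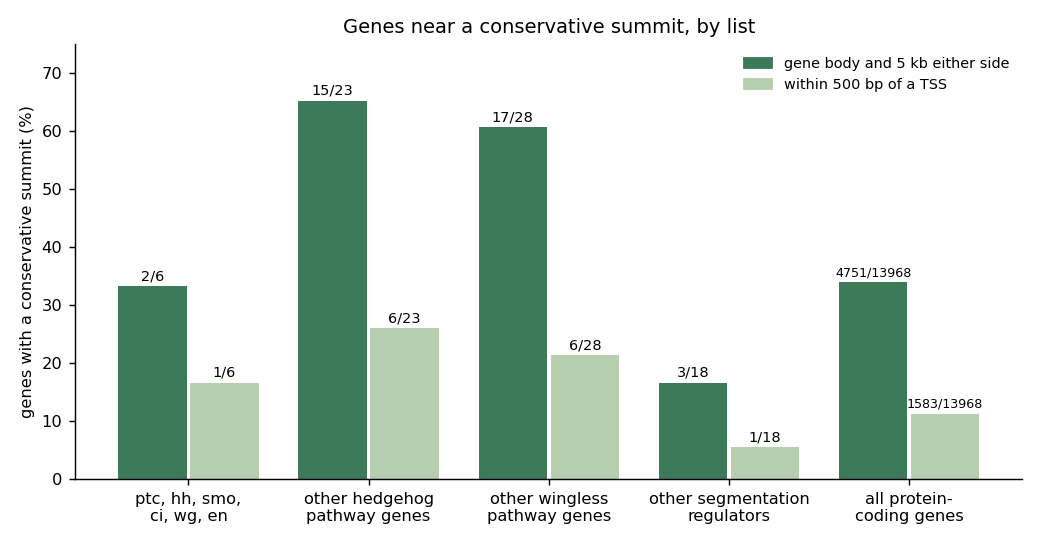
Share of the genes of each list with a conservative summit in the window (dark) and within 500 bp of a TSS (light), with the counts above each bar. The 6 genes stand at 33.3% and 16.7%, near all protein-coding genes at 34.0% and 11.3%, and the other hedgehog and wingless genes stand above and the segmentation regulators below both.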

How the data were processed

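Peaks of CG16779-eGFP chromatin immunoprecipitation were used as deposited, on dm6 per the labels. The aligner and peak caller are not given in the sources used here. The deposited signal of a peak is the authors' peak caller's own value, on an unstated scale, so it was compared only within a list. The deposited −log10 of the IDR was converted to an IDR. The list that ranks peaks over the 2 replicates has 2 columns of signal without a name, 1 per replicate. Each was assigned by 106479 and 107258 exact matches of position, summit and signal to the ranked list of a single replicate, with 0 matches to the other replicate. Columns of other samples numbered 0.

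Gene models were from Ensembl release 115 and sequence from RefSeq release 6, also dm6. Summits within 100 bp counted as the same peak. Intervals are exact binomial, from scipy 1.17.1. No test was made. Counting was checked on simulated summits. In the lists, all symbols matched, h through its synonym hry. The members and lists were chosen with earlier results of these data known. The genes named were the 6, those nearest to their summits, up to 4 per list by signal, and the 3 most like ptc (with those sharing their summit). Wnt5 and the genes named as lacking a summit were chosen after their values were seen. Alternatives were other windows, TSS distances, lists and replicates.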

Additional observations from a re-analysis of the deposited data

How the results depend on the processing

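The single conservative summit at ptc depended on the list. There were 3 in a window with 10 kb either side, 2 of which drew on the same peaks of the replicates. The count was 0 in the pooled-read list, among conservative peaks above the median rank by signal (the stronger ones) and in the own lists of the replicates (0 to 0). In the windows of the other 5 genes, 2 summits became 0 with 2 kb either side, 1 among the stronger ones and 0 to 2 in the own lists. Genes of the 6 with a summit in the window numbered 2 (34.0% of all genes), against 1 with 2 kb (23.9% of all genes) and 2 with 10 kb (46.6%). They numbered 1 with pooled reads (35.1% of all genes), 1 among the stronger ones (20.9%) and 0 to 1 in the own lists (20.0 to 20.5%). Near a TSS the count of 1 became 0 with pooled reads and 0 to 0 in the own lists, and it stayed 1 within 250 and 1000 bp. The share of all genes near a TSS is given only for the main setting, 11.3%. The other TSS counts therefore cannot be set against a background. The ratio of ptc to the strongest other gene was 0.902, against 1.38 with 2 kb, where the smo pair fell outside. With 10 kb it was 0.586, and other peaks were compared. These were the intergenic peak upstream of ptc (mean 39.8) and one near CG17075 (mean 67.9), 9952 bp upstream of the smo TSS. Each replicate alone also called the latter. On the signal of the peak made from both replicates the ratio was 0.693, with a peak in Acsl as the highest for ptc. For the ptc promoter peak over the stronger smo peak on that signal, the ratio was 0.659. With the highest peak of each window chosen anew in each replicate, which are not always the same peaks, it was 0.766 to 1.17. Highest signals chosen this way ranged from 40.6 to 44.4 for ptc, 31.1 to 38.0 for hh, 32.7 to 53.0 for smo, 30.2 to 31.4 for wg and 27.2 to 32.9 for en. Among the stronger ones, 9 of the other hedgehog genes, 10 of the wingless genes, 1 of the segmentation regulators and 20.9% of all genes had a summit in the window. In the own lists these were 9 to 9, 10 to 10, 1 to 1 and 20.0 to 20.5%. With 2 kb there were 13 of 23 hedgehog genes, 13 of 28 wingless genes and 1 of 18 regulators, against 23.9% of all genes. With 10 kb there were 16, 22 and 5, against 46.6% of all genes, so the background rose as well. Motif matches at the 3 summits rose from 2 to 6 within 150 bp. No paired analysis was possible because there is 1 group. Read depth is unknown, so what depth limits cannot be given.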
